A study of Homo sapiens with 24 samples.

Results

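Zinc finger genes of chromosome 19 were followed across the RNA-seq libraries of 2 human kidney cell lines. The members are the protein-coding genes on chromosome 19 whose symbol is ZNF followed by a number and at most 1 letter. They numbered 246 of the 60675 genes counted, and their coordinates below are those of the deposited tables on GRCh38. Most genes of this kind encode a tandem array of C2H2 zinc fingers that reads DNA sequence, and many also encode a KRAB domain. KRAB zinc finger proteins bring the co-repressor TRIM28 and the histone methyltransferase SETDB1 to the sequences they bind, among them transposable elements. The genes arose by repeated local duplication, so neighbours on chromosome 19 are often close relatives.

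ACHN is a human renal cancer line, labelled as clear cell renal cell carcinoma, and HK2 is a line from human kidney. Each line was sequenced in 4 groups of 3 libraries, 24 libraries in all: cells with a control hairpin (shNC), with a hairpin against KDM5C (shKDM5C), with a hairpin against YY1 (shYY1) and with both knockdowns (Dsh). KDM5C is a histone demethylase and YY1 a zinc finger transcription factor, and the comparison asks what the loss of either or both does to gene expression. All cells were stable lentiviral pools grown in DMEM with 10% serum. The double knockdown was made by infecting YY1-depleted cells with a GFP-labelled KDM5C hairpin, so that its pool went through more steps than the single ones. Which of the hairpins made for each gene was sequenced is not given in the sources used here. Whether the 3 libraries of a group came from separate cultures is also not stated, so p-values measure the spread between these libraries, which may be technical.

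Library totals ranged from 15926561 to 24272298 counts, of which members took 0.114% to 0.153% in ACHN and 0.243% to 0.295% in HK2 libraries. Values are given in CPM, counts scaled to library size with TMM factors over all libraries. In ACHN, KDM5C stood at 70.8 ± 0.56 CPM with the control hairpin, 43.1 ± 1.36 CPM with the KDM5C hairpin and 40.6 ± 0.644 CPM with both (SD, n = 3 each). YY1 stood at 139 ± 3.90 CPM, and at 76.8 ± 3.57 CPM with the YY1 hairpin and 97.0 ± 7.07 CPM with both. In HK2, KDM5C went from 190.7 ± 3.16 CPM to 68.2 ± 2.92 CPM and YY1 from 207 ± 6.38 CPM to 74.2 ± 1.78 CPM between shNC and Dsh. With the KDM5C hairpin alone, KDM5C had 34.11, 67.55 and 67.09 CPM in HK2 replicates 1, 2 and 3. YY1 had 63.93 ± 2.815 CPM in HK2 shYY1 cells. The part of the lower KDM5C level of replicate 1 in the HK2 results was not tested. All 8 kidney epithelial markers passed 1 CPM in both shNC groups, among them the renal transcription factor PAX8, whereas none of 4 proximal tubule markers did in any group. The clear cell marker CA9 was at 0.125 CPM in ACHN shNC cells. Immune markers summed to at most 0.411 CPM in any library and endothelial ones to at most 1.78 CPM. Of the fibroblast markers, COL1A1 moved with the ACHN knockdowns, from 584 CPM in shNC to 49.7 CPM in shKDM5C cells, while COL3A1 and DCN stayed near 0, and its part in the results was not tested. Replicate 1 of HK2 shKDM5C stood apart from the other 2 libraries of its group. In the main fits, counts of members that rest on it are given with and without it. Other settings, among them a fit over all groups, were run only with it.

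A gap of more than 1 Mb between neighbouring members was taken to open a new cluster, and groups of at least 5 members were numbered from the end of the short arm. This gave 9 clusters, with 11 members outside them. Cluster 1 (5 members, ZNF554 to ZNF77), cluster 2 (15, ZNF557 to ZNF846) and cluster 3 (25, ZNF653 to ZNF791) lie on the short arm. Cluster 4 (37 members, from 19668796 to 24129961) runs from ZNF101 to ZNF254, next to the centromere. On the long arm follow cluster 5 (5, ZNF302 to ZNF792), cluster 6 (26, ZNF565 to ZNF573), cluster 7 (24, ZNF575 to ZNF296) and cluster 8 (39, from 51571298 to 53580269, ZNF175 to ZNF331). Cluster 9 (59 members, from 55476332 to 58481230, ZNF628 to ZNF446) is nearest the end of the long arm.

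Many members were silent in ACHN cells and expressed in HK2 cells. No count of 55 members was found in any of the 12 ACHN libraries, which hold 231830666 counts in all. Of these 55, 37 had at least 1 CPM in HK2 shNC cells, 13 had counts in HK2 but under 1 CPM in shNC, and 5 had no count in HK2 either. A further 14 members had 1 to 3 counts over the ACHN libraries. In HK2, 9 members had at most 3 counts. The silent members made up 37 of the 216 members with at least 1 CPM in HK2 shNC (17.1%). Over all 12422 protein-coding genes at that level, 86 were at 0 in all ACHN libraries (0.692%). Among genes of the same symbol pattern on other chromosomes the share was 5 of 226 (2.21%), and among the other protein-coding genes of chromosome 19 it was 5 of 701 (0.713%). In the opposite direction, 0 of 154 members with at least 1 CPM in ACHN shNC lacked counts in HK2, beside 0.343% of protein-coding genes. In bulk libraries fewer cells that express a gene and less RNA per cell cannot be told apart.

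The levels of the 37 silent members in HK2 shNC ran from 1.20 to 23.2 CPM with a median of 5.16 CPM. Set against a floor of 3 counts over the ACHN shNC libraries (0.0535 CPM), they were at least 22.4-fold to at least 432-fold lower in ACHN, with a median bound of 96.4-fold. ZNF667 (ENSG00000198046, chromosome 19 from 56439325 to 56478065, minus strand) had 22.6, 25.5 and 21.4 CPM in the HK2 shNC libraries and 0 in every ACHN library, at least 432-fold lower. ZNF468 (ENSG00000204604, chromosome 19 from 52838008 to 52857649, minus strand) had 15.8, 20.9 and 18.1 CPM in HK2 shNC and 0 in ACHN, at least 341-fold lower. The same held for ZNF347 with 14.5, 17.5 and 18.2 CPM, for ZNF331 with 14.4, 12.6 and 13.1 CPM and for ZNF486 with 10.8, 12.03 and 13.1 CPM in HK2 shNC. ZNF331 is an imprinted gene, expressed from 1 parental copy in many tissues. For each of these 5 members every HK2 library lay far above every ACHN library. ZNF568, whose mouse counterpart represses a placental transcript of Igf2, had a single count over the ACHN libraries and 5.04 ± 0.680 CPM (SD, n = 3) in HK2 shNC.

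The silent members stayed at or near 0 in the ACHN knockdowns. Of the 66 members at 0 in the 3 ACHN shNC libraries, 55 stayed at 0 in all 9 knockdown libraries. The highest count any of the others reached in a knockdown library was 4, for ZNF813 (0.215 CPM).

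Silence ran along the chromosome in blocks. Members with at most 3 counts over the ACHN libraries formed 9 runs of 3 or more consecutive members, 3 to 10 members long and 47 members in all. This rule does not ask for expression in HK2. In the runs from ZNF433 to ZNF625 and from ZNF534 to ZNF808, 1 of 5 and 1 of 3 members passed 1 CPM in HK2 shNC. Whether so many runs would arise without regard to position was not tested. In cluster 4, the 7 members from ZNF682 to ZNF85 (19997058 to 20950697) had 0 counts in ACHN and 9213 in HK2 libraries, and all 7 passed 1 CPM in HK2 shNC. The 10 members from ZNF208 to ZNF730, further along the same cluster, also had 0 counts in ACHN, but only 1398 in HK2, where 2 of the 10 passed 1 CPM. In cluster 8, the 6 members from ZNF600 to ZNF816 had 2 counts in ACHN and 11190 in HK2, and the 5 from ZNF415 to ZNF525 had 1 and 8171. In cluster 9, ZNF667, ZNF471 and ZNF470 (56439325 to 56588911) had 0 and 8922 counts. The spans of the 9 runs hold 7 other protein-coding genes, and each of the 7 had at most 3 counts over the ACHN libraries. Of the 7, only ZFP28, a zinc finger gene whose symbol is outside the rule, passed 1 CPM in HK2 shNC, with 12.3 CPM and 0 counts in ACHN. The rest of the 7 had no count in any library of either line, so their lack of counts is not particular to ACHN.

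By cluster, members with no count in ACHN numbered 18 of 37 in cluster 4, 16 of 39 in cluster 8, 8 of 25 in cluster 3, 6 of 59 in cluster 9 and 3 of 26 in cluster 6. Clusters 1 and 2 held 1 and 2 such members, and 1 lay outside the clusters. None lay in cluster 5 or cluster 7. In cluster 8, 13 of the 16 were expressed at 1 CPM or more in HK2 shNC, and in cluster 9 all 6 were, whereas in cluster 4 it was 10 of the 18. The 5 members without a count in either line all lie in cluster 4.

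**Figure D1:**
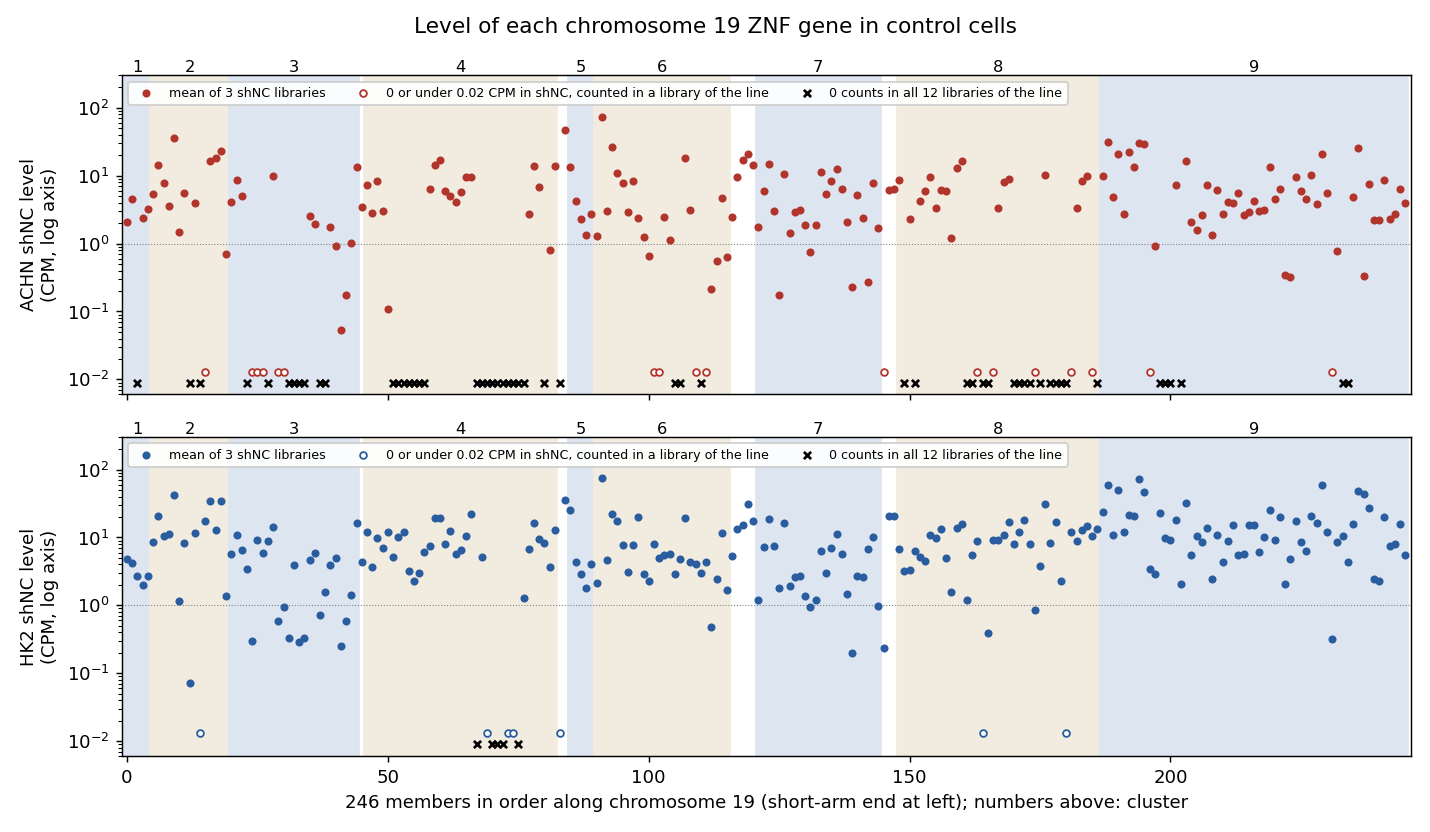
Mean CPM of each member in the 3 shNC libraries of ACHN (top) and HK2 (bottom) on a log axis, with the 246 members in their order along chromosome 19, shaded bands for the clusters and crosses at the foot for members with 0 counts in all 12 libraries of the line. The 55 crosses of ACHN gather in clusters 4, 8 and 3 while cluster 7 has none, and the 5 crosses of HK2 lie in cluster 4.

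Promoter sequence was examined because silence came in blocks of neighbours. RefSeq windows of 300 bases (GRCh38.p14, 250 before to 50 after the start) were found for 216 of the 246 members. The median member promoter held 20 CpG dinucleotides, beside 14 over the 35116 promoters of the table. Silent members expressed in HK2 (31 of the 37 with a window) had a median of 16 CpG and members with at least 1 CPM in both lines (139 of 153) a median of 21. Medians by cluster ran from 10 in cluster 4 to 26 in cluster 5, with 25 in clusters 1 and 8. Clusters 4 and 8 held 18 and 16 members at 0 in ACHN, cluster 1 held 1 and cluster 5 none. The promoters of ZNF667 (chr19:56477296-56477595, minus strand) and ZNF468 (chr19:52857570-52857869, minus strand), both silent in ACHN, are shown beside that of ZNF611 (chr19:52734995-52735294, minus strand), a member of cluster 8 expressed in both lines. They hold 42, 30 and 26 CpG dinucleotides, set in capitals and written 5′ to 3′ in the direction of the gene.
ZNF667: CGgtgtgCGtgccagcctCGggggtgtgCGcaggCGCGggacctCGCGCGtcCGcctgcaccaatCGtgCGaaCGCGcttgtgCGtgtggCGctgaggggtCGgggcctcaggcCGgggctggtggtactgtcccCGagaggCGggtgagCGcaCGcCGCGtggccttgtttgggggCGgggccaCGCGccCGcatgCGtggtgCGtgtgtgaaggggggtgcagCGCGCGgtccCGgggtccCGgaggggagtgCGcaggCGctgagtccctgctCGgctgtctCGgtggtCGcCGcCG
ZNF468: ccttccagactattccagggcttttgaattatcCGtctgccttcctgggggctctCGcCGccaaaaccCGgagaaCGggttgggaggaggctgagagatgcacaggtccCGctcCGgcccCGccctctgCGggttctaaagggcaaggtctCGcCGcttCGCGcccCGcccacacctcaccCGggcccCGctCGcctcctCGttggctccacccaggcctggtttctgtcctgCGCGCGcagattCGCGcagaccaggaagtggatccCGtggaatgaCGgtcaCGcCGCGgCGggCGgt
ZNF611: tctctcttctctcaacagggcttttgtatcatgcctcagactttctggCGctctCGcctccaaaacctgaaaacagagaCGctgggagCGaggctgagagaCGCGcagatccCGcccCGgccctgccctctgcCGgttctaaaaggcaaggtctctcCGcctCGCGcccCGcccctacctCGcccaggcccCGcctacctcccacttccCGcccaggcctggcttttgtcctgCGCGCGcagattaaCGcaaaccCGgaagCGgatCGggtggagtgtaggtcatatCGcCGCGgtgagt
ZNF611 had 9.01 ± 0.294 CPM (SD, n = 3) in ACHN shNC. The window of ZNF444, the nearest member to ZNF667 that was expressed in both lines, held 23 CpG dinucleotides. ZNF667 and ZNF468 were printed for their HK2 shNC level, the highest among silent members with a window. Their CpG counts of 42 and 30 lie above the upper quartile (24) of the silent members expressed in HK2, whose median was 16.

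Members expressed in both lines were also lower in ACHN. Among the 153 members with at least 1 CPM in both shNC groups, 101 were lower in ACHN (66.0%) and 7 higher (4.58%) at an adjusted p under 0.05 in edgeR's quasi-likelihood test. Their median log2 fold change, ACHN over HK2, was -0.57. The other 13081 genes at that level were 38.9% lower and 38.6% higher with a median of 0.0048. Over all members that passed edgeR's filter on low counts, 167 of 221 were lower and 8 higher, beside 38% lower and 38.6% higher over all genes tested. That count is given as a description, because 57 of the 221 passed the filter only through their HK2 libraries. The summed CPM of all members was 1295 ± 14.2 in ACHN shNC and 2500 ± 18.2 in HK2 shNC (SD, n = 3).

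By cluster, the members with at least 1 CPM in both shNC groups were counted in the same way. In cluster 9, 42 of 46 were lower in ACHN and none higher, with a median log2 fold change of -1.14. In cluster 3, 8 of 9 were lower and none higher (median -0.48), in cluster 4 10 of 17 were lower and none higher (median -0.40), and in cluster 8 10 of 18 were lower and 1 higher (median -0.47). In cluster 7, 4 were lower and 3 higher of 19, with a median of 0.14. Differences between clusters were not tested. The summed level of cluster 7 was 1.08 times as high in HK2 as in ACHN, against 2.64 times for cluster 8 and 2.47 times for cluster 9. Of the 5 members named as highest in ACHN relative to HK2, 4 belong to cluster 7. ZNF112 had 5.14, 4.69 and 5.68 CPM in ACHN shNC and 2.19, 2.70 and 3.29 CPM in HK2 shNC (log2 fold change 0.91, SE 0.19, adjusted p = 1.26e-04, edgeR). ZNF224, a repressor of the aldolase A gene, had 10.9, 11.2 and 11.9 CPM against 6.51, 6.01 and 6.38 CPM (log2 fold change 0.83, SE 0.13, adjusted p = 1.18e-06, edgeR). ZNF225 and ZNF296 of the same cluster rose by 0.85 and 0.81 on the log2 scale, and ZNF561 of cluster 2 by 0.50. In all 5 the libraries of the lines did not overlap.

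Levels between members were compared per kb of exon. In ACHN shNC the highest were ZNF146 (17.5 CPM per kb), ZNF579 (9.46), ZNF580 (8.33), ZNF428 (8.24) and ZNF787 (8.23 CPM per kb). In HK2 shNC they were ZNF787 (19.6), ZNF146 (18.2), ZNF579 (18.1), ZNF865 (12.3) and ZNF581 (12.1 CPM per kb). ZNF146 encodes an array of fingers without a KRAB domain. Its level of 72.6 ± 2.56 CPM (SD, n = 3) in ACHN shNC and 75.5 ± 3.31 CPM (SD, n = 3) in HK2 shNC did not differ by the test (log2 fold change -0.066, SE 0.051, adjusted p = 0.239, edgeR). ZNF579, ZNF580, ZNF581, ZNF787 and ZNF865 are neighbours at the start of cluster 9.

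Knockdown of KDM5C alone lowered more members than it raised in ACHN. Of 161 members tested, 12 were higher (7.45%) and 50 lower (31.1%), beside 28.9% higher and 27.7% lower over all genes tested. Their median log2 fold change was -0.20. Zinc finger genes elsewhere in the genome showed 21 higher and 83 lower of 225, and the other protein-coding genes of chromosome 19 showed 316 higher and 128 lower of 733. Cluster 4 had 9 lower and 0 higher of 18 and cluster 8 had 8 lower and 0 higher of 18, whereas cluster 9 had 10 lower and 6 higher of 48. ZNF30 fell from 1.32 ± 0.421 CPM (SD, n = 3) to 0.404 ± 0.169 CPM (SD, n = 3) (log2 fold change -1.71, SE 0.39, adjusted p = 6.14e-04, edgeR). ZNF550 fell from 4.46, 3.67 and 4.55 CPM to 1.62, 1.46 and 1.36 CPM (log2 fold change -1.52, SE 0.21, adjusted p = 6.5e-07, edgeR). ZNF585A, ZNF221 and ZNF790 fell by 1.61, 1.58 and 1.53 on the log2 scale. No library of the 2 groups overlapped for these 5 members.

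A few members rose strongly in the same cells. ZNF114 (ENSG00000178150, chromosome 19 from 48172318 to 48287608, plus strand), which lies outside the clusters, had 5.92, 6.36 and 6.22 CPM in shNC and 24.2, 23.9 and 19.4 CPM in shKDM5C cells (log2 fold change 1.85, SE 0.10, adjusted p = 6.05e-14, edgeR). In shYY1 cells it fell to 3.95, 4.63 and 2.24 CPM (log2 fold change -0.79, SE 0.18, adjusted p = 3.08e-04, edgeR), and in Dsh cells it stood at 5.04, 5.98 and 5.91 CPM and was not called (adjusted p = 0.474, edgeR). The level in Dsh cells was thus near that of shNC, and the interaction of the knockdowns was negative (log2 difference -1.21, SE 0.23, adjusted p = 7.09e-05, edgeR). In HK2 it had 20.9 ± 1.57 CPM (SD, n = 3) in shNC, 30.03 ± 0.793 CPM (SD, n = 3) in shKDM5C, 19.9 ± 0.321 CPM (SD, n = 3) in shYY1 and 18.3 ± 1.75 CPM (SD, n = 3) in Dsh cells. The HK2 interaction was below 0 (log2 difference -0.68, SE 0.15, adjusted p = 0.016, edgeR), and without replicate 1 of HK2 shKDM5C it was -0.64 (SE 0.14, adjusted p = 9.19e-04, edgeR). The difference between HK2 shKDM5C and shNC cells did not pass the test with all libraries (adjusted p = 0.117, edgeR) and did without that library (log2 fold change 0.53, SE 0.098, adjusted p = 2.29e-04, edgeR). ZNF296, ZNF587B, ZNF574 and ZNF146 rose by 0.68, 0.55, 0.55 and 0.34 on the log2 scale in ACHN shKDM5C cells.

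YY1 knockdown alone had a like balance in ACHN. Of 161 members tested, 7 were higher (4.35%) and 43 lower (26.7%), with a median of -0.21, beside 24.2% higher and 24.5% lower over all genes tested. With DESeq2 the number lower was 28. Cluster 4 again had none higher and 12 of 18 lower. ZNF266 of cluster 2 (ENSG00000174652, chromosome 19 from 9412598 to 9435578, minus strand) had 4.25, 3.83 and 3.79 CPM in shNC and 0.427, 0.377 and 0.280 CPM in shYY1 cells (log2 fold change -3.44, SE 0.28, adjusted p = 2.71e-12, edgeR). In Dsh cells its level was 4.53, 5.37 and 4.85 CPM, again above every shYY1 library. The interaction was 4.69 on the log2 scale (adjusted p = 1.06e-11, edgeR). YY1 itself was less reduced in Dsh cells (97.0 CPM) than in shYY1 cells (76.8 CPM). The part of this difference in the levels of ZNF266, and of ZNF585A below, was not tested.

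ZNF585A of cluster 6 (ENSG00000196967, chromosome 19 from 37106734 to 37172741, minus strand) was also lowest in shYY1 cells. Its libraries gave 0.891, 1.24 and 1.25 CPM in shNC, 0.379, 0.450 and 0.272 CPM in shKDM5C and 0, 0.0539 and 0.112 CPM in shYY1 cells. Dsh cells had 0.566, 0.775 and 0.571 CPM, above each single knockdown and below the shNC libraries. The fall in shYY1 cells (log2 fold change -4.23, SE 0.59, adjusted p = 2.61e-07, edgeR) rests on few counts, and the interaction (log2 difference 5.01, SE 0.77, adjusted p = 4.44e-06, edgeR) was above 0. In HK2 the gene had 5.75 ± 0.682 CPM (SD, n = 3) in shNC and 5.78 ± 0.648 CPM (SD, n = 3) in shYY1 cells, with no call in any knockdown. ZNF443 of cluster 3 completed the 3 largest interactions above 0, with 2.38 on the log2 scale.

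ZNF256 of cluster 9 (ENSG00000152454, chromosome 19 from 57940833 to 57947675, minus strand), whose protein binds TRIM28, moved the opposite way. It had 0.682, 0.971 and 0.650 CPM in ACHN shNC and 1.65, 1.56 and 1.68 CPM in shYY1 cells, where it rose (log2 fold change 1.06, SE 0.30, adjusted p = 0.00399, edgeR). It had 0, 0.394 and 0.272 CPM in shKDM5C and 0, 0.0554 and 0 CPM in Dsh cells, so that a single count remained in the double knockdown (log2 fold change -5.10, SE 0.80, adjusted p = 1.94e-05, edgeR). In HK2 it stayed between 6.77 and 10.3 CPM on average in all 4 groups. ZNF550, ZNF121, ZNF574 and ZNF358 were also higher in ACHN shYY1 cells, by 0.49, 0.27, 0.27 and 0.26 on the log2 scale.

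The promoters of members were searched on both strands for AANATGGC, the core of the YY1 motif. It occurred in 31 of the 216 member windows (14.4%) and in 6.58% of all promoters of the table. In ACHN shYY1 cells, members with the core were higher in 2 and lower in 8 of 22 tested (median -0.16), and members without it in 5 and 29 of 124 (median -0.20). In HK2 shYY1 cells the counts were 2 higher and 5 lower of 29 with the core and 9 higher and 7 lower of 171 without it. The promoter of ZNF585A (chr19:37172646-37172945, minus strand) holds the core on both strands, and that of ZNF429 (chr19:21505352-21505651, plus strand), which fell with YY1 in both lines, also holds it. Among members that hold the core and were called in ACHN shYY1 cells, these had the largest changes and were chosen for that. Their fall beside a core therefore follows from the choice. Both are printed 5′ to 3′ in the direction of the gene with the core in capitals.
ZNF585A: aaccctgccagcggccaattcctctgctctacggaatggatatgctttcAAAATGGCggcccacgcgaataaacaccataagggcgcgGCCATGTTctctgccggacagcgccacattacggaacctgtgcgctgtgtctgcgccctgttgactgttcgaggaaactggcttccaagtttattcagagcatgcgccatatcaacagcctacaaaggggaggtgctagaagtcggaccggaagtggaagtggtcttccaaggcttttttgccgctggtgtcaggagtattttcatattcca
ZNF429: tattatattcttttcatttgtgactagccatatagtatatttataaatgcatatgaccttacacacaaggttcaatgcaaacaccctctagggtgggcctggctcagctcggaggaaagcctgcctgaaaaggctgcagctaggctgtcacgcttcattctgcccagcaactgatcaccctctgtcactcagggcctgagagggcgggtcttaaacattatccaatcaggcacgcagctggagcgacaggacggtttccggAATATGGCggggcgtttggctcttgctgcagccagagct
A match describes these letters only, and binding of YY1 was not measured in these files.

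More members were called higher in the ACHN double knockdown than in either single one. Of 163 members tested, 40 were higher (24.5%) and 26 lower (15.95%), with a median of 0.044, beside 30.7% higher and 32% lower over all genes tested. Zinc finger genes elsewhere showed 55 higher and 73 lower of 227. The summed member level was 1492 ± 27.5 CPM in Dsh, against 1295 ± 14.2 CPM in shNC, 1273 ± 20.1 CPM after KDM5C and 1196 ± 14.7 CPM after YY1 knockdown alone (SD, n = 3 each), and every Dsh library lay above every other ACHN library. Clusters moved apart. Cluster 9 had 21 higher and 4 lower of 49 (median 0.21) and its sum went from 396 to 560 CPM. Cluster 2 had 5 higher and 0 lower of 11, with sums of 137 and 201 CPM, whereas cluster 4 had 1 higher and 9 lower of 18 (median -0.31), with sums of 138 and 105 CPM. Cluster 8 had 0 higher and 2 lower of 18 and cluster 7 had 1 higher and 5 lower of 21.

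**Figure D2:**
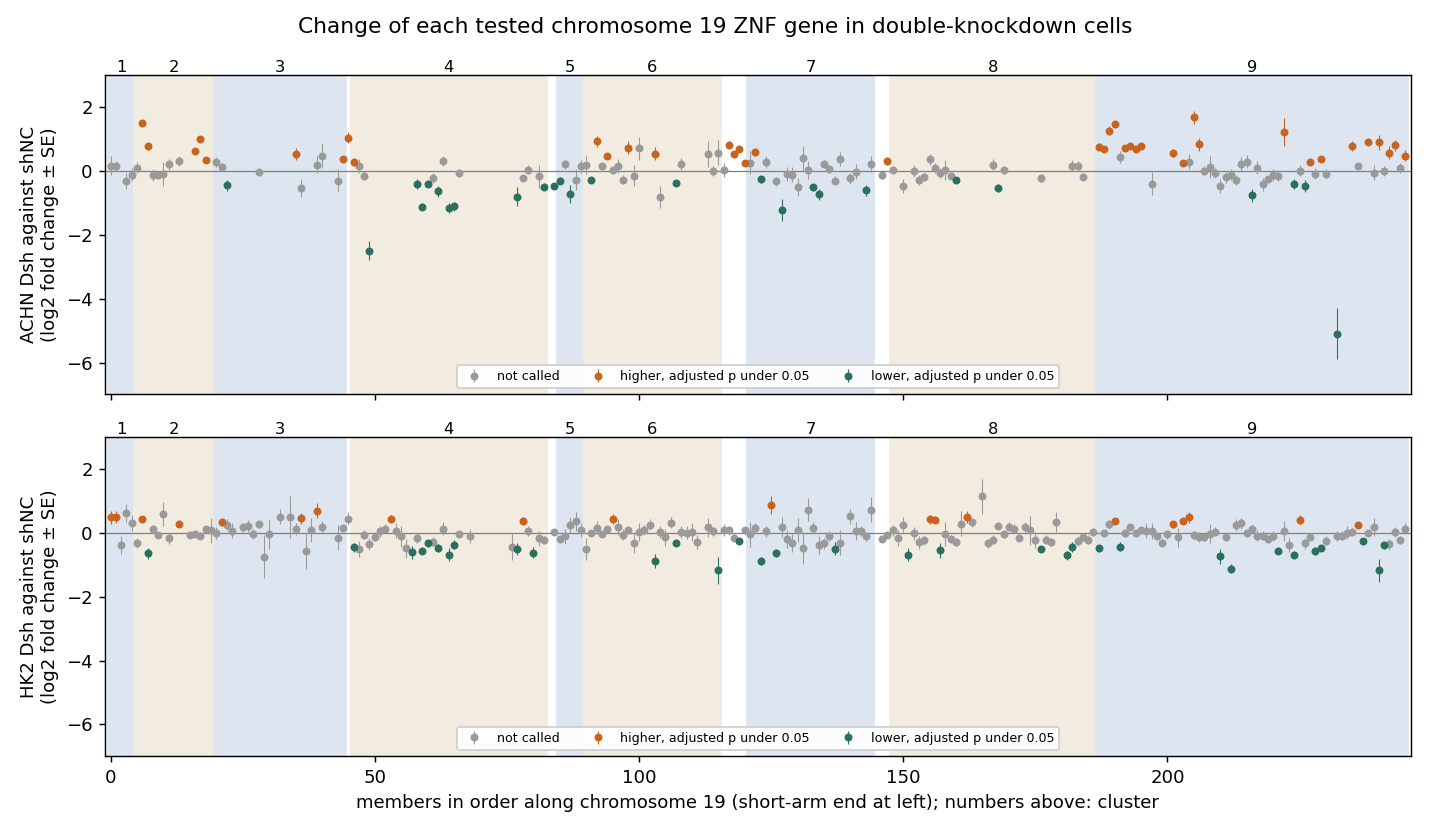
Log2 fold change (± SE) of each member tested between Dsh and shNC cells of ACHN (top) and HK2 (bottom), in order along chromosome 19 with shaded bands for the clusters; members called higher are orange, called lower green (adjusted p under 0.05, edgeR) and the rest grey. Cluster 9 of ACHN has 21 members called higher and 4 lower, and cluster 4 has 1 and 9.

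Neighbours at the start of cluster 9 rose in the ACHN double knockdown. The first 9 members of the cluster, from ZNF628 to ZNF444, had log2 fold changes from 0.44 to 1.47, and all but ZNF784 were called (adjusted p = 0.0559 for ZNF784, edgeR). ZNF865 (ENSG00000261221, chromosome 19 from 55605405 to 55617269, plus strand) had 21.2, 20.9 and 21.3 CPM in shNC and 58.9, 58.1 and 57.5 CPM in Dsh cells (log2 fold change 1.47, SE 0.063, adjusted p = 4.36e-13, edgeR). In the shYY1 libraries it had 20.3, 20.1 and 18.5 CPM and in the shKDM5C libraries 26.4, 20.8 and 26.1 CPM. The 3 Dsh libraries thus stood alone. ZNF524 rose from 4.80 ± 0.532 CPM (SD, n = 3) to 11.5 ± 1.13 CPM (SD, n = 3) (log2 fold change 1.27, SE 0.13, adjusted p = 1.13e-07, edgeR). ZNF460, further along the cluster at 57280051 to 57293569, rose from 1.78, 1.29 and 1.62 CPM to 4.43, 4.59 and 5.95 CPM (log2 fold change 1.68, SE 0.21, adjusted p = 1.21e-06, edgeR), with shKDM5C and shYY1 means of 1.41 and 1.40 CPM. Outside cluster 9, ZNF358 of cluster 2 rose from 13.4, 16.4 and 13.9 CPM to 37.5, 45.9 and 40.7 CPM (log2 fold change 1.51, SE 0.093, adjusted p = 7.39e-11, edgeR) and ZNF333, outside the clusters, from 3.45 ± 0.561 CPM (SD, n = 3) to 7.12 ± 1.45 CPM (SD, n = 3). Groups of shNC and Dsh libraries did not overlap for any of these members.

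The neighbours at the start of cluster 9 have exons rich in G and C. After the values were seen, members were divided at an exon GC content of 50%, which 37 of the 246 reach. Of these 37, 31 were tested, and 17 were higher and 2 lower in ACHN Dsh cells (median 0.48). Of the 132 tested members below it, 23 were higher and 24 lower (median -0.028). Once trends with GC content and length were taken out of each library, the counts were 17 higher and 1 lower above 50% and 21 higher and 27 lower below it. Cluster 9 then had 20 higher and 5 lower and cluster 4 had 0 and 10. In HK2 Dsh cells, members of at least 50% GC were higher in 5 and lower in 8 of 35. In ACHN shKDM5C cells they were higher in 8 and lower in 4 of 31 (median 0.11), and members below 50% in 4 and 46 of 130 (median -0.25). With the trends taken out these counts were 10 and 4, and 3 and 50. In ACHN shYY1 cells the counts were 3 and 2 of 31, and 4 and 41 of 130. With the trends taken out they were 0 and 8, and 6 and 30.

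Of the 5 largest falls among members with at least 1 CPM in ACHN shNC and no overlap between the groups, 4 were in cluster 4. ZNF253 (ENSG00000256771, chromosome 19 from 19865886 to 19894674, plus strand) had 3.36, 2.37 and 3.36 CPM in shNC and 0.412, 0.498 and 0.652 CPM in Dsh cells (log2 fold change -2.50, SE 0.30, adjusted p = 7.5e-07, edgeR). Its single knockdowns lay between, with 1.73, 1.24 and 1.20 CPM in shKDM5C and 1.49, 1.83 and 1.01 CPM in shYY1 cells. ZNF429 fell in all 3 ACHN knockdowns, from 5.45, 6.47 and 5.20 CPM in shNC to 2.92, 2.75 and 2.56 CPM in shKDM5C, 2.40, 1.89 and 2.58 CPM in shYY1 and 2.57, 2.49 and 2.57 CPM in Dsh cells. The log2 fold changes were -1.07, -1.34 and -1.16, and every knockdown library lay below every shNC library. ZNF714 and ZNF100 fell by 1.11 and 1.10 on the log2 scale. ZNF221 of cluster 7 fell by 1.23.

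**Figure D3:**
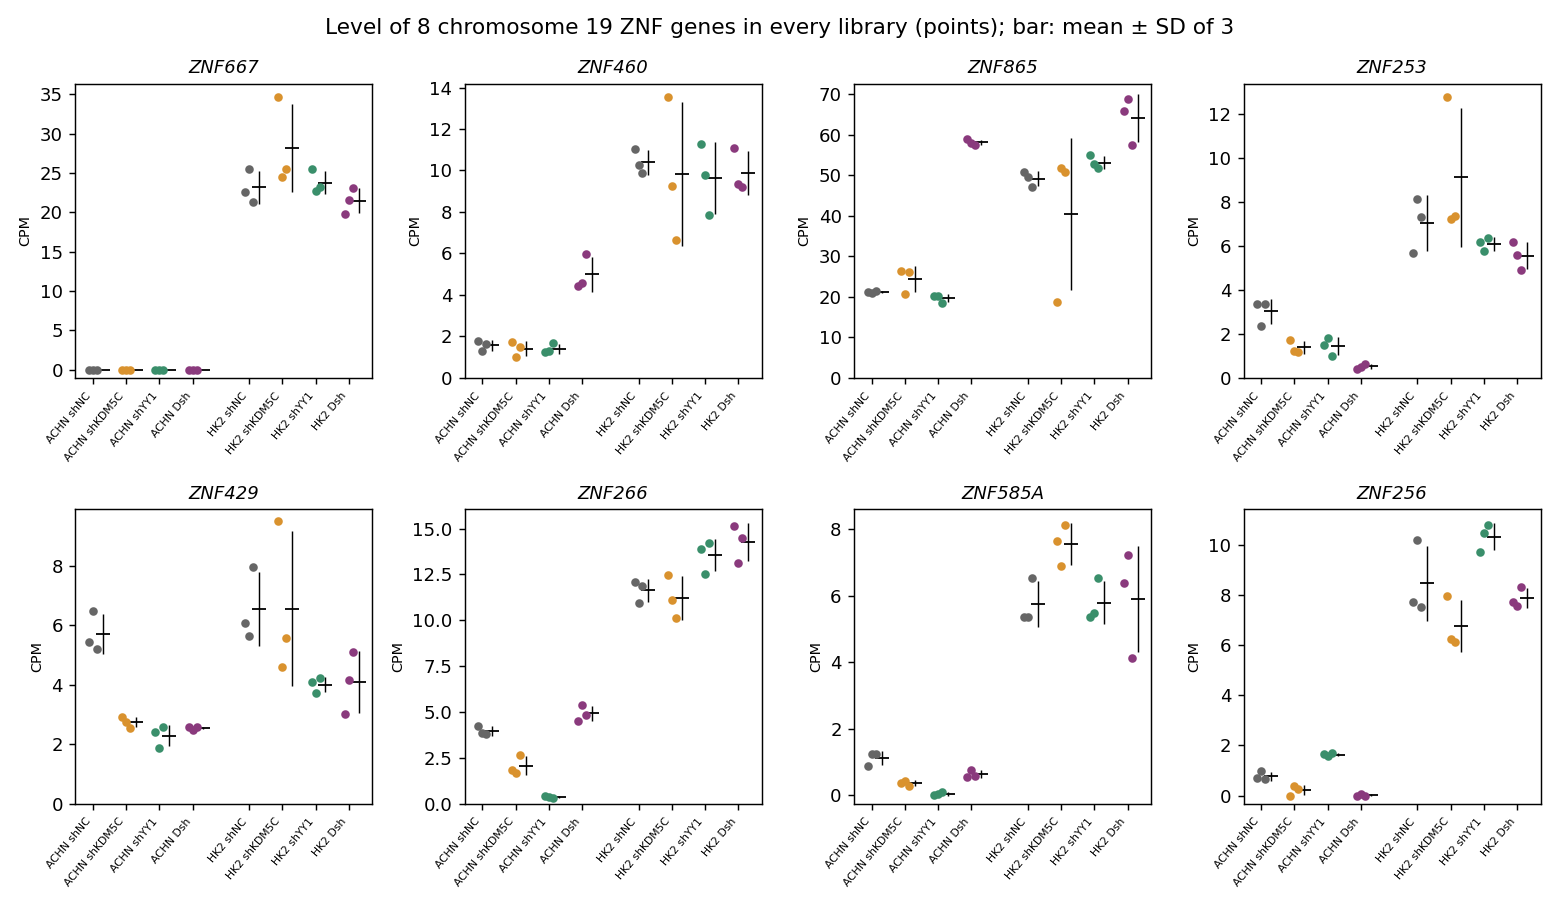
CPM (linear axis) in each of the 24 libraries for 8 members, points for libraries and bars for the mean ± SD of the 3 in a group. ZNF266 and ZNF585A are lowest in ACHN shYY1 and higher again in Dsh, ZNF460 and ZNF865 rise in ACHN Dsh, ZNF256 is nearly lost there, and ZNF667 is at 0 in every ACHN library.

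The effect of both knockdowns was above that of the single knockdowns added up, in log2 units, for many ACHN members. The interaction, which compares Dsh with the sum of shKDM5C and shYY1 effects, was above 0 in 67 of 165 members (40.6%) and below 0 in 7 (4.24%). Over all genes tested the shares were 26.8% above and 28.8% below. The median was 0.49 for members, 0.012 for all genes, 0.16 for zinc finger genes elsewhere and -0.10 for the other genes of chromosome 19. Each of the 9 clusters had a positive median, from 0.36 to 0.61, and the members outside them had a median of 0.13. Cluster 4 had 8 above and 1 below of 18, and cluster 9 had 22 above and 1 below of 50. Once trends with GC content and length were taken out, cluster 4 had 4 above and 1 below (median 0.27, from 0.38) and cluster 9 had 18 above and 1 below (median 0.46, from 0.53). After ZNF256, the members furthest below 0 were ZNF114 and ZNF180 (-1.21 and -0.57 on the log2 scale). The targeted genes were themselves not additive in ACHN. YY1 had 97.0 CPM in Dsh and 76.8 CPM in shYY1 cells (interaction 0.28 on the log2 scale, adjusted p = 0.00125, edgeR). KDM5C had 90.7 CPM in shYY1 and 70.8 CPM in shNC cells (interaction -0.42 on the log2 scale, adjusted p = 6.48e-06, edgeR). The part of unequal knockdown in the interactions of members was not tested.

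In HK2 few members were called after the single knockdowns. For shKDM5C, 0 of 223 members were called in either direction by edgeR, beside 0.668% higher and 0.656% lower over all genes tested. At an unadjusted p under 0.05, 5 were higher and 1 lower, and DESeq2 called 1 higher and 0 lower. Without replicate 1, 3 members were higher and 7 lower of 224, beside 11.5% higher and 10.9% lower over all genes tested. For shYY1, 11 of 222 members were higher (4.95%) and 14 lower (6.31%), beside 14.3% and 14.7% over all genes. With all groups in the fit, which then includes replicate 1 of HK2 shKDM5C, 1 was higher and 2 were lower. That fit was not run without the library. ZNF772 of cluster 9 fell from 14.2, 17.9 and 14.3 CPM in shNC to 7.30, 7.18 and 6.53 CPM in shYY1 cells (log2 fold change -1.14, SE 0.14, adjusted p = 1.17e-06, edgeR). In Dsh cells it had 6.37, 7.87 and 7.14 CPM, whereas shKDM5C cells had 16.3, 13.1 and 15.7 CPM. In ACHN it had 4.03 ± 0.177 CPM (SD, n = 3) in shNC and 3.19 ± 0.302 CPM (SD, n = 3) in shYY1 cells, with no call. ZNF793, ZNF429, ZNF14 and ZNF211 fell by 0.96, 0.72, 0.66 and 0.63 on the log2 scale. Among the 5 largest rises were 3 members that had no count in ACHN: ZNF880 (0.90), ZNF556 (0.67) and ZNF737 (0.59), the other 2 being ZNF296 (1.02) and ZNF580 (0.55).

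In the HK2 double knockdown, 20 of 224 members were higher (8.93%) and 33 lower (14.7%), beside 25.5% and 24.3% over all genes tested. With all groups in the fit, 1 was higher and 12 were lower. Calls over all genes dropped too, to 1992 higher and 1922 lower from 4128 and 3945 in the fit of the 2 groups alone. The fit over all groups includes replicate 1 of HK2 shKDM5C and was not run without it. In the fit of the 2 groups alone, cluster 4 had 9 lower and 2 higher of 29, cluster 9 had 11 lower and 6 higher of 58, and cluster 3 had 3 higher and none lower of 20. ZNF837, ZNF573, ZNF428 and ZNF420 fell by 1.17, 1.17, 0.89 and 0.89 on the log2 scale. ZNF404, ZNF555, ZNF880, ZNF805 and ZNF44 rose by 0.88, 0.49, 0.49, 0.49 and 0.45. The HK2 interaction was above 0 in 0 and below 0 in 4 of 226 members, beside 5.21% and 4.4% over all genes. At an unadjusted p under 0.05 it was 4 above and 23 below, and DESeq2 called 2 and 5. Without replicate 1 of HK2 shKDM5C, 5 members were above 0 and 12 below of 230, beside 15.02% and 13.7% over all genes. The members below 0 included ZNF556 (-1.32 on the log2 scale), ZNF737 (-1.22) and ZNF114 (-0.68), and without that library their values were -1.27, -0.88 and -0.64, each past the test.

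**Figure D4:**
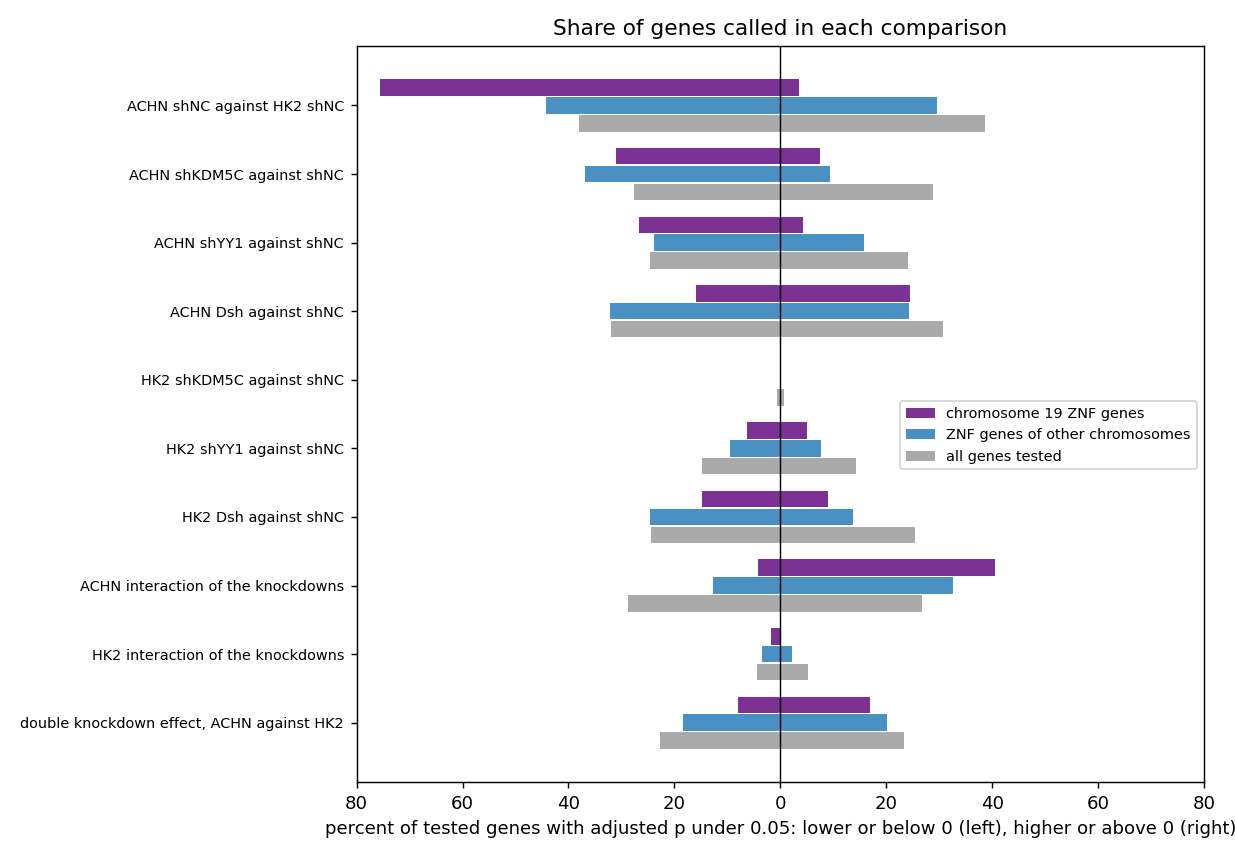
Percent of tested genes called lower or below 0 (left) and higher or above 0 (right) at an adjusted p under 0.05 in edgeR in each comparison, with 1 bar each for members, ZNF genes of other chromosomes and all genes tested. Members fell more often than they rose in ACHN shKDM5C (12 higher, 50 lower) and shYY1 (7 and 43), while 40 were higher and 26 lower in ACHN Dsh.

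The double knockdown effect was compared between the 2 lines. Tested directly, its effect was more positive in ACHN for 38 of 224 members (17.0%) and more negative for 18 (8.04%), beside 23.3% and 22.7% over all genes tested. Of the 224, 51 had at most 3 counts over the ACHN libraries and none of these was called. Among the 153 members with at least 1 CPM in both shNC groups, 37 were more positive in ACHN (24.2%) and 14 more negative (9.15%), beside 28.8% and 27.2% of the 13081 other genes at that level. Cluster 9, with 58 of the 224 members tested, held 20 of the 38 and 2 of the 18. Of its 46 members with at least 1 CPM in both shNC groups, 20 were more positive in ACHN (43.5%) and 1 more negative (2.17%).

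Members and all genes were then counted by their calls in both lines. Of the 40 members higher in ACHN Dsh cells, 4 were also higher in HK2 (10% of the 40 and 20% of the 20 higher in HK2), beside 38.1% and 46.5% over all genes, and 7 were lower there (17.5% of the 40 and 21.2% of the 33 lower in HK2), beside 15.6% and 20% over all genes. None of the 26 members lower in ACHN was among the 20 higher in HK2, beside 16.6% and 21.2% over all genes. Lower in both were 9 (34.6% of the 26 and 27.3% of the 33), beside 35.8% and 47.8% over all genes. With all groups in the fit, 0 members were higher in both lines, of 40 in ACHN and 1 in HK2, so that this overlap could not exceed 1. For HK2 this fit includes replicate 1 of shKDM5C. Lower in both were 2 (of 27 and 12), and 2 (of 40 and 12) were higher in ACHN and lower in HK2. Over all genes in that fit the shares were 18.6% and 49.4% for higher in both. They were 18.96% and 55.25% for lower in both, and 6.29% and 17.3% for higher in ACHN and lower in HK2. Of the 9 members lower in both lines in the fits of each comparison alone, 6 lie in cluster 4: ZNF714, ZNF431, ZNF738, ZNF429, ZNF100 and ZNF724. ZNF714 fell from 13.8, 13.8 and 15.9 CPM to 6.79, 6.87 and 6.44 CPM in ACHN (log2 fold change -1.11, SE 0.11, adjusted p = 7.23e-08, edgeR) and from 17.4, 19.2 and 20.5 CPM to 12.98, 12.7 and 13.2 CPM in HK2 (log2 fold change -0.56, SE 0.11, adjusted p = 8.39e-05, edgeR). No member reached a log2 fold change of 1 in the same direction in both lines.

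In the fits of each comparison alone, the 7 members that rose in ACHN and fell in HK2 were ZNF414, ZNF101, ZNF420, ZNF574, ZNF628, ZNF587 and ZNF837. ZNF837 of cluster 9 rose from 1.78, 2.43 and 2.54 CPM to 4.84, 4.82 and 3.02 CPM in ACHN (log2 fold change 0.90, SE 0.23, adjusted p = 0.00204, edgeR) and fell from 1.97, 2.65 and 2.21 CPM to 1.06, 1.29 and 0.680 CPM in HK2 (log2 fold change -1.17, SE 0.36, adjusted p = 0.0072, edgeR). ZNF587, which represses endogenous retroviruses together with its relative ZNF417, rose from 20.9 ± 0.670 CPM (SD, n = 3) to 27.3 ± 2.17 CPM (SD, n = 3) in ACHN and fell from 59.99 ± 4.19 CPM (SD, n = 3) to 43.6 ± 0.384 CPM (SD, n = 3) in HK2 (log2 difference between the lines 0.87, adjusted p = 6.46e-08, edgeR). Of its exon bases, 35.0% are shared with other genes, so its counts may be incomplete.

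Members with known roles were followed in every comparison. ZNF91 of cluster 4, a repressor of SVA retrotransposons, had 13.9, 14.2 and 13.2 CPM in ACHN shNC, 9.53, 10.5 and 12.03 CPM in shKDM5C, 11.8, 10.9 and 11.5 CPM in shYY1 and 10.9, 12.6 and 11.8 CPM in Dsh cells. It fell in shKDM5C (adjusted p = 0.00235) and shYY1 (adjusted p = 0.00779) but was not called in Dsh cells (adjusted p = 0.0597, edgeR). In HK2 it rose in Dsh cells, from 15.3, 18.98 and 15.1 CPM to 17.7, 22.5 and 23.8 CPM (log2 fold change 0.37, SE 0.12, adjusted p = 0.00923, edgeR). ZNF611, which also represses SVA elements, fell by 0.28 in ACHN shKDM5C cells and was called in no other knockdown. ZNF274, which recruits SETDB1 to the 3′ ends of zinc finger genes, rose in ACHN shKDM5C by 0.20 and in HK2 Dsh by 0.24 on the log2 scale. In HK2 the 3 Dsh libraries of ZNF274 (58.3, 57.5 and 57.8 CPM) lay above the 3 shNC libraries (50.7, 45.02 and 51.2 CPM).

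ZNF417 fell in ACHN shKDM5C cells (log2 fold change -0.73, SE 0.16, adjusted p = 4.29e-04, edgeR) and was not called in the double knockdown of either line. ZNF146 rose in ACHN shKDM5C cells (log2 fold change 0.34, SE 0.043, adjusted p = 1.92e-07, edgeR) and fell in Dsh cells by 0.26 on the log2 scale. ZNF224 fell in all 3 ACHN knockdowns, by 0.74, 0.57 and 0.51 for shKDM5C, shYY1 and Dsh, and was called in no HK2 knockdown. ZNF260 fell in ACHN shKDM5C cells by 0.27, ZNF180 in ACHN shYY1 and Dsh cells by 0.30 and 0.60, and ZNF45 in HK2 Dsh cells by 0.64 on the log2 scale.

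The silencing machinery that KRAB zinc finger proteins work through was followed as a list of 22 genes, all tested. In ACHN shKDM5C cells 9 rose and 7 fell, beside 28.9% and 27.7% over all genes. In ACHN shYY1 cells 3 rose and 5 fell, beside 24.2% and 24.5%, and in Dsh cells 6 rose and 8 fell, beside 30.7% and 32%. In HK2 shKDM5C cells 0 were called by edgeR or DESeq2 with all libraries (0 at an unadjusted p under 0.05 in edgeR, 2 in DESeq2). Over all genes 0.668% were higher and 0.656% lower in edgeR. Without replicate 1, 3 of the 22 were higher (13.6%) and 0 lower in edgeR, beside 11.5% and 10.9% over all genes. In HK2 shYY1 cells 4 rose and 3 fell, beside 14.3% and 14.7% over all genes, and in Dsh cells 1 rose and 10 fell, beside 25.5% and 24.3%. TRIM28, the co-repressor that the KRAB domain binds, had 313, 296 and 313 CPM in ACHN shNC, 420.4, 399 and 409 CPM in shKDM5C, 306, 305 and 291 CPM in shYY1 and 478, 475 and 477 CPM in Dsh cells. In HK2 it had 1046, 978 and 990.5 CPM in shNC and 602, 609 and 602 CPM in Dsh cells. The double knockdown thus raised TRIM28 in ACHN and lowered it in HK2, and the difference between the lines was 1.39 on the log2 scale (SE 0.056, adjusted p = 5.33e-18, edgeR). SETDB1 was called in no knockdown. Between the shNC groups, 6 of the 22 genes were higher and 13 lower in ACHN, beside 38.6% and 38% of all genes.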

How the data were processed

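Per the labels, total RNA of the 24 libraries was prepared with TRIzol and NEBNext Ultra kits. The authors aligned read pairs with HISAT2 2.0.5 and deposited raw counts per gene, whole numbers from featureCounts (2.0.1 in the headers, 1.5.0-p3 in the submitters' processing notes) on Ensembl release 84 genes. Strand was not used and reads mapping to several places were not counted, so recent duplicates may be undercounted. A median of 1.80% of a member's exon bases overlapped other genes, and 7 members shared over 50%. Symbols were given to 41209 of the 60675 genes. The median member had 47 counts per library in ACHN shNC and 127.5 in HK2 shNC.

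Groups came from the labels, and no library was left out. edgeR 4.0.16 (R 4.3.3) was run on all genes of each comparison with TMM, its filter on low counts and quasi-likelihood F tests, and Benjamini-Hochberg adjustment over every gene tested. Only the groups compared entered a fit, the interactions used the 4 groups of a line, and the difference between lines the shNC and Dsh groups. SEs were derived from the F statistic. Floors (3 counts) cover counting error only. Simulated counts with 100 genes changed by 1 on the log2 scale gave 95% called for ACHN Dsh (16138 genes), 46% for HK2 shKDM5C (15786 genes) and 27% for the HK2 interaction (16683 genes). Of all calls in these simulations, 7.62%, 8.44% and 7.87% fell on unchanged genes. The changed genes were drawn only from those above a minimum expected count in the smallest library. The shares called therefore do not carry over to members with few counts.

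The members and lists were chosen with earlier results of these data known. Named members are the 5 largest rises and falls per comparison (at least 1 CPM in the higher group, no overlap between groups), the 5 highest per kb of exon, the 3 largest interactions each way, cluster extremes in the double knockdowns and 12 members with described roles. Members of at least 50% exon GC, the first 9 members of cluster 9, the silent runs, the members with at least 1 CPM in both lines and those called in both lines were described after their values were seen. Alternatives were DESeq2 1.42.0, RLE size factors, total counts, no filter, a minimum of 10 counts per library and a fit over all groups. Further ones were a block on the replicate number, GC content and length trends removed, each library left out, and gaps of 0.5 and 2 Mb. RefSeq promoters were searched with Python 3.11.15.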

Additional observations from a re-analysis of the deposited data

Results flagged for a closer look

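The effect of the double knockdown was tested for a difference between ACHN and HK2, and members past an adjusted p of 0.05 (edgeR) are given here because the effects of the lines differed. The effect was more positive in ACHN for 38 members and more negative for 18, and the values below are log2 differences, ACHN minus HK2, for the named members among them.

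In cluster 9, the values above 0 were 0.74 for ZNF579, 1.02 for ZNF524, 1.10 for ZNF865, 0.76 for ZNF580, 0.62 for ZNF581, 0.70 for ZNF787, 1.78 for ZNF460, 1.02 for ZNF772, 0.43 for ZNF587B, 0.87 for ZNF587 and 2.09 for ZNF837. ZNF837 rose in ACHN and fell in HK2, whereas ZNF460 rose in ACHN with no call in HK2. ZNF772 fell in HK2 with no call in ACHN. In cluster 2 the values were 1.09 for ZNF358, 1.44 for ZNF414, 0.69 for ZNF121 and 1.11 for ZNF561. In cluster 6 they were 0.78 for ZNF566, 1.45 for ZNF420 and 1.77 for ZNF573, in cluster 7 0.46 for ZNF576 and 0.65 for ZNF428, and for ZNF574, outside the clusters, 0.95.

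Values below 0 were found for ZNF253 (-2.13), ZNF714 (-0.53), ZNF100 (-0.71) and ZNF91 (-0.58) in cluster 4, and for ZNF550 (-0.87) and ZNF256 (-4.95) in cluster 9. ZNF256 had 1 count in the ACHN Dsh libraries, so its value rests on few counts. The others were ZNF57 (-0.92) in cluster 1, ZNF44 (-0.95) in cluster 3, ZNF599 (-0.94) in cluster 5, ZNF146 (-0.24) in cluster 6, ZNF221 (-1.40) and ZNF224 (-0.65) in cluster 7 and ZNF83 (-0.74) in cluster 8.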

How the results depend on the processing

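Counts of members called were recomputed under each alternative. Outside the runs that leave out a library, those that moved by over 1.5 times were few, and the cause was not tested. With DESeq2, 28 members were lower in ACHN shYY1, 1 was higher in HK2 shKDM5C and 2 were above 0 in the HK2 interaction. With total counts, 4 were below 0 in the ACHN interaction, where the median of all genes moved to 0.11 from 0.012, and 1 above 0 in the HK2 interaction. With all groups in the fit, HK2 Dsh had 1 higher and 12 lower, HK2 shYY1 1 and 2, and HK2 shKDM5C 2 higher. These fits include replicate 1 of HK2 shKDM5C and were not run without it. With GC and length trends removed, HK2 shKDM5C had 1 higher and 1 lower and the HK2 interaction 1 above and 11 below 0. Without a filter the HK2 interaction had 2 above and 11 below 0.

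Same-numbered libraries did not deviate together (correlations from -0.0894 to 0.0416). The values thus gave no sign of pairing by number, but with 3 libraries per group they cannot exclude it. With the replicate block the HK2 interaction had 2 members below 0, and no other count moved by over 1.5 times.

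Leaving out 1 library gave ranges of members higher and lower. They were 9 to 13 and 38 to 46 for ACHN shKDM5C, 5 to 7 and 33 to 41 for ACHN shYY1, 33 to 39 and 20 to 29 for ACHN Dsh, 0 to 3 and 0 to 7 for HK2 shKDM5C, 7 to 12 and 7 to 14 for HK2 shYY1, and 12 to 19 and 25 to 33 for HK2 Dsh. For the shNC groups they were 7 to 10 and 157 to 165, for the ACHN interaction 55 to 65 and 5 to 7, for the HK2 interaction 0 to 5 and 1 to 12, and for the difference between lines 31 to 37 and 12 to 19. Without replicate 1 of HK2 shKDM5C, that comparison had 3 higher and 7 lower and the HK2 interaction 5 above and 12 below 0. Without replicate 3 of HK2 shNC, HK2 shYY1 had 7 and 7, and without replicate 3 of HK2 shYY1 it had 7 higher. Without replicate 1 of HK2 shNC, HK2 Dsh had 12 higher.

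Values near 0 changed sign. With 1 library left out, log2 fold changes in Dsh cells ranged from -0.14 to 0.48 for ZNF554 in ACHN, which also reached -0.018, and in HK2 from -0.036 to 0.027 for ZNF146 (also 0.016), from -0.10 to 0.010 for ZNF611 and from -0.11 to 0.011 for ZNF260 (also 0.0076). A gap of 2 Mb gave 6 wider clusters, in which cluster 2 merged with 3, cluster 5 with 6 and cluster 8 with 9. Clusters 7 to 9 also took in members from outside the clusters. Medians of the wider clusters had the other sign in ACHN Dsh for those holding clusters 5, 7 and 8 (0.16, 0.033 and 0.10). The same held for cluster 2 in HK2 Dsh (0.11) and cluster 3 in ACHN shKDM5C (0.034).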
